A study of Homo sapiens with 4 samples.

Results

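The 30 genes described here act in the G2 phase of the cell cycle and in mitosis, and were measured by RNA-seq in MKN-45, as the cells are labelled, a human gastric cancer line. They were chosen by name from a fixed list of cyclins, kinases, kinesins, checkpoint and centromere genes. All 30 of 30 were found among the 58735 genes of the count files and passed the filter on low counts, which 16343 genes passed in all. There were 4 libraries. The 2 control libraries came from cells infected with a control lentivirus, and the 2 libraries labelled SIX2 overexpression from cells infected with a lentivirus meant to raise SIX2, a homeobox gene active in kidney progenitor cells. Stably infected cells of both groups had been selected with puromycin, and the medium was DMEM with serum and antibiotics, per the labels. Titles number the libraries 1 and 2 within each group, and the labels give this number no other meaning. Each number holds 1 control and 1 SIX2-labelled library, here called control 1, SIX2-labelled 1, control 2 and SIX2-labelled 2. No source states that the libraries are separate cultures. The p-values thus cover the spread among these libraries alone, which may be technical.

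Entry into mitosis is driven by the kinase CDK1 bound to cyclins A and B. Aurora and Polo-like kinases, motor proteins of the kinesin family and the kinetochore then build the spindle and attach chromosomes to it. The spindle checkpoint holds back the anaphase-promoting complex (APC/C), a ubiquitin ligase, until every chromosome is attached, and the ligase then marks cyclin B and securin for destruction. Many of these genes are transcribed mainly in G2 and M. Their promoters are known to carry CCAAT boxes bound by NF-Y and the cell cycle homology region, a short element, usually TTTGAA, bound by the DREAM complex in resting cells and by MuvB with B-MYB and FOXM1 in dividing cells. Their RNA is therefore widely read as a measure of proliferation.

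The promoters below are shown because many of the members carry these elements, though not all. Of the 25 members matched to a promoter, 17 held TTTGAA or TTCGAA and 21 held CCAAT. Whether the elements bear on how members moved between libraries was not tested. RefSeq promoter windows on GRCh38.p14, from 250 bases before to 50 after a gene's start, were found for 25 of the 30 members, in 29 windows. AURKA, BIRC5, TPX2, TTK and UBE2C were not matched. The letters TTTGAA, on either strand, were in 18 of the 29 member windows and in 15.2% of all 35116 windows. TTCGAA, which reads the same on both strands, was in 2 member windows and in 1.45% of all. CCAAT, on either strand, was in 24 of 29 and in 34.6% of all windows. At least 1 of the first 2 motifs together with CCAAT was in 16 of 29 and in 6.38% of all. The 110 bases upstream of the start of 8 members follow, 5′ to 3′ on the gene's strand, with capitals marking the element TTTGAA and the CCAAT box on either strand.
KIF11, chr10:92593020-92593129, plus strand: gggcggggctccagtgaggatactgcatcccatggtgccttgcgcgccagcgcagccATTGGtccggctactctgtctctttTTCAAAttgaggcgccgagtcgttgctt
KIF23, chr15:69414239-69414348, plus strand: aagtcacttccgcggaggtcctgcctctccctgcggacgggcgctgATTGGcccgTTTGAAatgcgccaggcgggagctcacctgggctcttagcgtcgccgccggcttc
CCNB2, chr15:59105036-59105145, plus strand: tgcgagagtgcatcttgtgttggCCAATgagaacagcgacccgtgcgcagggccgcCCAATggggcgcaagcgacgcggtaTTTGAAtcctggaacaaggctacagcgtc
MKI67, chr10:128126424-128126533, minus strand: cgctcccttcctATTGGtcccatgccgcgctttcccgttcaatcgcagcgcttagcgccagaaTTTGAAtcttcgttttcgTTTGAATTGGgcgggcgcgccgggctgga
CENPE, chr4:103198344-103198453, minus strand: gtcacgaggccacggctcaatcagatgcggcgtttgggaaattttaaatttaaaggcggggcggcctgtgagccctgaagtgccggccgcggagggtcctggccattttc
PLK1, chr16:23678779-23678888, plus strand: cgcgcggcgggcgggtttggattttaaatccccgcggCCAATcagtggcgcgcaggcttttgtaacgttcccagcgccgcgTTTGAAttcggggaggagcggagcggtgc
BUB1B, chr15:40160959-40161068, plus strand: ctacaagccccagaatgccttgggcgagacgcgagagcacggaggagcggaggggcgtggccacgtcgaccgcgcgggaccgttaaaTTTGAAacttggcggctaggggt
CDC20, chr1:43358871-43358980, plus strand: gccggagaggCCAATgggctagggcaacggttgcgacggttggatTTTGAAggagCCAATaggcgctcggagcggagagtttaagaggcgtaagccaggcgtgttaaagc

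KIF11, KIF23, CCNB2, MKI67 and CENPE are among the members that were higher in the libraries numbered 2, and PLK1, BUB1B and CDC20 among those that did not pass the test. Of the promoters shown, the TTTGAA of CCNB2 and PLK1 and the second one of MKI67 began at the same position, 29 bases before the start. In KIF11 it began 28 bases before the start, on the other strand. At the second TTTGAA of MKI67 the motif shares letters with the reverse CCAAT box that follows. CENPE held none of the motifs in its window. Of the 12 matched members that were higher in number 2, 7 held TTTGAA, and of the 13 matched members that did not pass, 9 did. These matches are letters in a window and were not tested as binding sites.

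Totals per library were between 14792869 and 16777792 counts, and mitochondrially encoded genes held 6.19% to 7.03% of them. SIX2 itself had 369 counts in control 1, 379 in SIX2-labelled 1, 597 in control 2 and 605 in SIX2-labelled 2, and the difference between labels did not pass the test (log2 change 0.02, SE 0.37, Benjamini-Hochberg adjusted p = 1.00 in the quasi-likelihood test of edgeR). Comparisons by label are therefore between libraries as labelled. Between numbers SIX2 did pass, higher in number 2 (log2 change 0.64, SE 0.13, adjusted p = 0.00119, edgeR). Of 17 epithelial and gastric cancer line markers, KRT8 was at 1707 to 3549 CPM (CPM, counts scaled by library size and TMM factor) and MET at 220 to 246 CPM. KRT18 was at 763 to 1538 CPM, MUC13 at 344 to 445 CPM and MUC1 at 191 to 265 CPM. Lower were EPCAM at 8.91 to 12.2 CPM, CEACAM5 at 0 to 1.94 CPM and TFF1 at 0.179 to 1.74 CPM. The keratin gene KRT19 had 0 to 2 counts in a library, KRT20 0 to 4, CEACAM6 0 to 3, CLDN3 0 to 2 and TFF3 0. The list was thus mixed, with some markers high and some at or near 0. No test of which line these cells are was made. Among markers of other cells, the immune genes PTPRC and CD3E and the endothelial gene KDR had 0 counts in every library, but others had some. The immune gene CD14 had 4 to 14 counts in a library, and the endothelial genes PECAM1 and VWF 3 to 10 and 4 to 16. The endothelial gene CDH5 was at 7.68 to 11.8 CPM, and the tested fibroblast markers summed to 124 to 290 CPM.

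Between the SIX2-labelled libraries and controls, 0 of the 30 members passed the test, as did 0 of all 16343 genes (0%). By unadjusted p, 0 members and 12 genes lay under 0.05 with edgeR. With DESeq2 it was 0 members and 7 genes, and with limma-voom 0 members and 10 genes. In these fits the difference between numbers counts as spread. On simulated counts the edgeR test found 0% of changes of 1.5-, 2- or 4-fold between labels. Its 0 therefore does not show that the labels are alike. With number as a second term it found 42.4%, 75.4% and 100%. In the data 0 members and 8 genes then passed. The members' summed level was 4744 CPM in control 1 and 5003 CPM in SIX2-labelled 1, against 6282 CPM in control 2 and 6234 CPM in SIX2-labelled 2. The sum thus followed the number in the title and not the virus label. Counts of the members made up 0.480% and 0.502% of all counts in number 1 and 0.626% and 0.611% in number 2. In bulk RNA a larger share of cells in G2 and M and more RNA per such cell cannot be told apart.

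**Figure D1:**
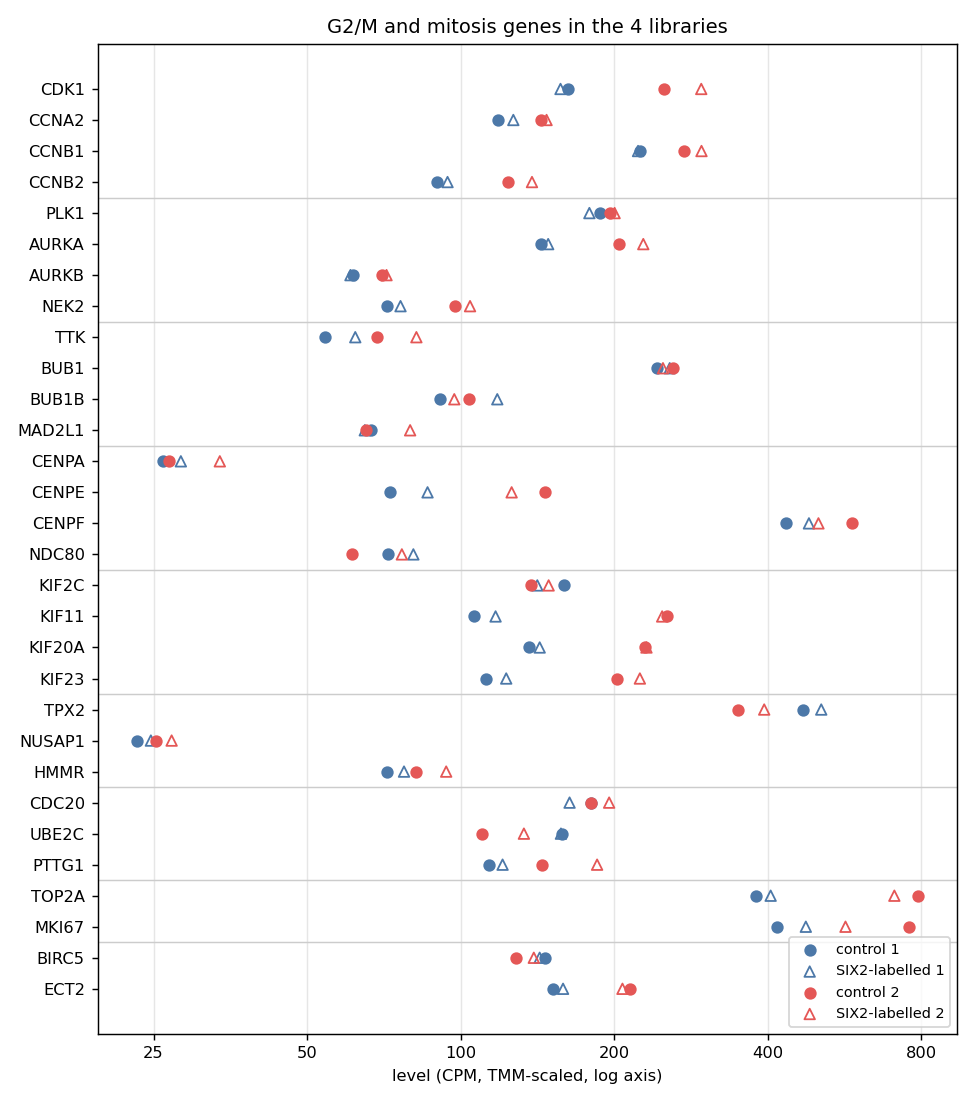
Level of each of the 30 members (CPM, log axis) in the 4 libraries, grouped by role with grey lines between roles. Circles are controls, open triangles SIX2-labelled libraries, blue number 1 and red number 2; for KIF11, TOP2A and CDK1 red and blue symbols are well apart, while for BUB1 all 4 lie between 243 and 261 CPM.

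By title number, 14 members were higher and 2 lower in number 2, and 14 did not pass (edgeR quasi-likelihood test, Benjamini-Hochberg adjusted p under 0.05 over all tested genes). Of all tested genes 43.8% passed in that comparison, 22.2% higher and 21.6% lower. The members' median log2 change was 0.25, from -0.40 to 1.17, against 0.01 for all tested genes. The share of members that were higher lay above that of all genes, and the share that were lower lay below it. Neither difference was tested. Each member had at least 347 counts in every library, while tested genes at large include ones with far fewer. Calls and overlap depend on counts, so the shares are not directly comparable. Libraries of the 2 numbers did not overlap for 20 members that were higher in number 2 and 3 that were lower, where 36.1% and 36.2% of all genes did not overlap in these directions.

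**Figure D2:**
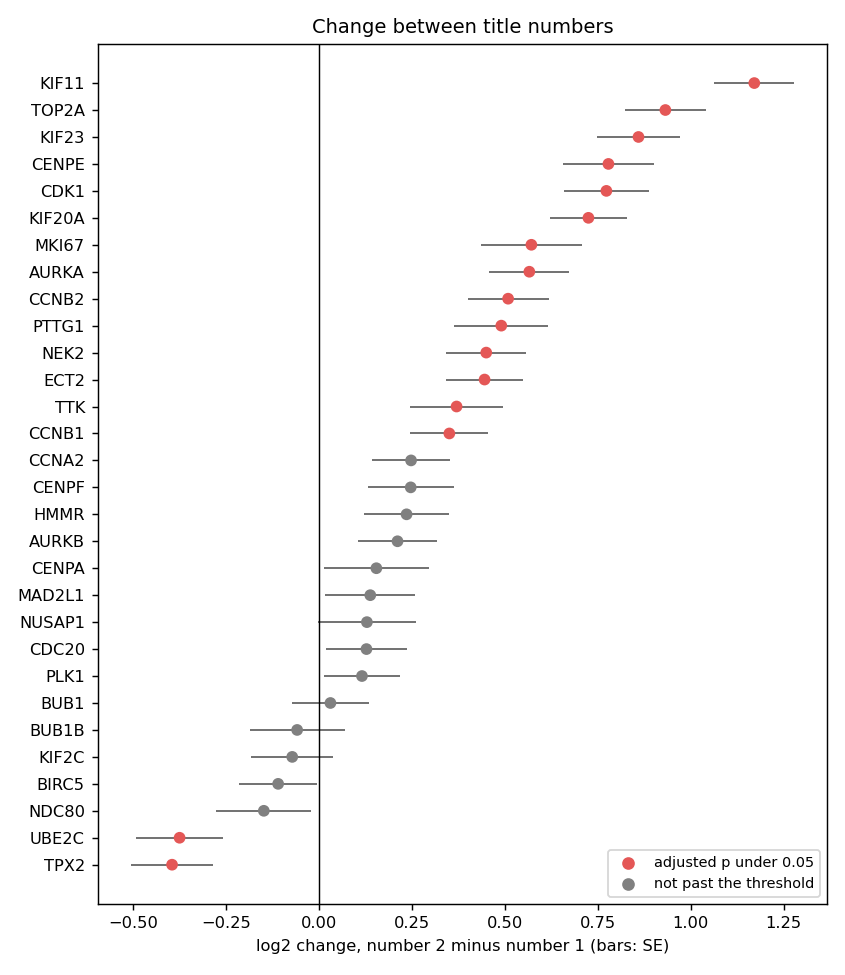
Log2 change of each member between the libraries numbered 2 and those numbered 1, in order of size, with the SE as bars. Red points passed the threshold: 14 lie right of 0, with KIF11 at 1.17, and 2 lie left of 0, TPX2 at -0.40 and UBE2C at -0.38.

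The core of the mitotic kinase was higher in number 2. CDK1, the kinase that starts mitosis, was at 163 CPM in control 1 and 157 CPM in SIX2-labelled 1, and at 250 CPM in control 2 and 296 CPM in SIX2-labelled 2. Both libraries numbered 2 lay above both numbered 1, a log2 change of 0.77 (SE 0.11, edgeR adjusted p = 0.000131). CCNB2, a B-type cyclin, was at 89.9, 94.3, 124 and 138 CPM in control 1, SIX2-labelled 1, control 2 and SIX2-labelled 2, again with no overlap between numbers. Its log2 change was 0.51 (SE 0.11, adjusted p = 0.00206, edgeR). CCNB1, the main partner of CDK1 in mitosis, had a smaller one of 0.35 (SE 0.10, adjusted p = 0.0157), from 224 ± 1.49 CPM to 285 ± 15.9 CPM (SD, n = 2). CCNA2, a cyclin that acts from S phase to early mitosis, was at 123 ± 6.02 and 146 ± 2.59 CPM (SD, n = 2) and did not pass (adjusted p = 0.0736, edgeR). It overlaps EXOSC9 on the other strand, which had 46.3% as many counts, and the strand setting of the counting is not given in the sources used here.

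Of the other mitotic kinases, AURKA and NEK2 were higher in number 2, while PLK1 and AURKB did not pass. AURKA, the kinase of spindle poles, was at 144 CPM in control 1, 148 CPM in SIX2-labelled 1, 205 CPM in control 2 and 228 CPM in SIX2-labelled 2. The numbers did not overlap (log2 change 0.57, SE 0.11, adjusted p = 0.000877, edgeR). NEK2, which separates centrosomes, went from 73.9 ± 3.28 to 101 ± 4.76 CPM (SD, n = 2; log2 change 0.45, SE 0.11). PLK1, which acts from mitotic entry to cytokinesis, was at 183 ± 6.17 and 198 ± 2.80 CPM (SD, n = 2; adjusted p = 0.394). AURKB, the kinase of the chromosomal passenger complex, was at 61.2 ± 0.536 and 70.8 ± 1.04 CPM (SD, n = 2; adjusted p = 0.129). Both had higher levels in each library numbered 2 than in either numbered 1, by less than the test required.

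In the spindle checkpoint, 1 of 4 genes was higher in number 2. TTK, also known as MPS1, the kinase that starts checkpoint signalling, was at 54.2, 62.2, 68.6 and 81.9 CPM in control 1, SIX2-labelled 1, control 2 and SIX2-labelled 2. The numbers did not overlap (log2 change 0.37, SE 0.12, adjusted p = 0.0277, edgeR), but DESeq2 gave an adjusted p of 0.0504. BUB1, a checkpoint kinase at kinetochores, was at 243, 257, 261 and 249 CPM in the same order, and the numbers overlapped (adjusted p = 0.840). BUB1B, whose protein BUBR1 is part of the inhibitor of the APC/C, had its highest level in SIX2-labelled 1, at 118 CPM, and 91.2 CPM in control 1, 104 CPM in control 2 and 97.2 CPM in SIX2-labelled 2. MAD2L1, the checkpoint protein MAD2 that binds CDC20, stood at 64.9 to 66.7 CPM in 3 libraries and at 79.6 CPM in SIX2-labelled 2. Neither of these genes passed between numbers (adjusted p = 0.740 for BUB1B and 0.384 for MAD2L1, edgeR).

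Centromere and kinetochore genes differed among themselves. CENPE, a kinesin of the outer kinetochore that moves chromosomes to the metaphase plate, was at 72.6 CPM in control 1, 86.1 CPM in SIX2-labelled 1, 146 CPM in control 2 and 126 CPM in SIX2-labelled 2. The numbers did not overlap (log2 change 0.78, SE 0.12, adjusted p = 0.000220, edgeR). CENPF, a large protein of the kinetochore and nuclear matrix, was at 435, 482, 584 and 503 CPM in the same order and did not pass (adjusted p = 0.101). NDC80, the subunit that grips microtubules, was at 72.1, 80.8, 61.2 and 76.7 CPM, and the numbers overlapped. CENPA, the histone variant that marks centromeres, was at 26.0, 28.3, 26.8 and 33.7 CPM. For NDC80 and CENPA both SIX2-labelled libraries lay above both controls, and these were the 2 members whose labels did not overlap in that direction, with 0 in the other. Of all tested genes 5.99% had SIX2-labelled libraries above controls without overlap and 5.80% below them. Neither gene passed the label test (log2 change 0.24, SE 0.20, adjusted p = 1.00 for NDC80 and 0.23, SE 0.24, adjusted p = 1.00 for CENPA, edgeR). CENPA shares its span and strand with SLC35F6, which had 158% as many counts, so its counts are uncertain.

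Of the 4 kinesins 3 were higher in number 2. KIF11 (ENSG00000138160, chromosome 10, 92593286 to 92655395, plus strand, GRCh38), the motor also known as Eg5 that pushes spindle poles apart, was at 106 CPM in control 1, 117 CPM in SIX2-labelled 1, 254 CPM in control 2 and 248 CPM in SIX2-labelled 2. It was 2.25-fold higher in number 2, a log2 change of 1.17 (SE 0.11, edgeR adjusted p = 2.19e-06), the largest of the 30. KIF23, the motor MKLP1 of the central spindle, was at 112, 123, 202 and 225 CPM in the same order (log2 change 0.86, SE 0.11, adjusted p = 4.14e-05). KIF20A, the motor MKLP2 that carries the passenger complex to the midzone, went from 139 ± 4.79 to 231 ± 1.17 CPM (SD, n = 2; log2 change 0.72, SE 0.10). Its span overlaps CDC23 and BRD8 on the other strand, and BRD8 counts were also higher in number 2 than in number 1, at 2506 and 2195 against 1466 and 1618. KIF2C, the kinesin MCAK that takes microtubules apart and corrects wrong attachments, was at 151 ± 13.0 and 143 ± 7.93 CPM (SD, n = 2) and did not pass (adjusted p = 0.627, edgeR).

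The spindle assembly factor TPX2 went the other way. TPX2 (ENSG00000088325, chromosome 20, 31739271 to 31801805, plus strand), which activates AURKA and starts microtubule growth at chromosomes, was at 468 CPM in control 1, 509 CPM in SIX2-labelled 1, 349 CPM in control 2 and 394 CPM in SIX2-labelled 2. Both libraries numbered 2 lay below both numbered 1, and the gene was 1.32-fold higher in number 1 (log2 change -0.40, SE 0.11, adjusted p = 0.0110, edgeR). AURKA, on the same chromosome, was higher in number 2. HMMR, a spindle protein that binds hyaluronan and TPX2, was at 71.6, 77.4, 81.8 and 93.7 CPM in control 1, SIX2-labelled 1, control 2 and SIX2-labelled 2 and did not pass (adjusted p = 0.114). NUSAP1, which bundles spindle microtubules, was at 23.9 ± 1.08 and 26.2 ± 1.34 CPM (SD, n = 2; adjusted p = 0.459).

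Genes that end mitosis were split. UBE2C, the ubiquitin-conjugating enzyme of the APC/C, was at 158, 157, 110 and 133 CPM in control 1, SIX2-labelled 1, control 2 and SIX2-labelled 2, with both libraries numbered 2 below both numbered 1 (log2 change -0.38, SE 0.12, adjusted p = 0.0185, edgeR). PTTG1, the securin that holds separase inactive until anaphase, was at 114, 121, 144 and 185 CPM in the same order and was higher in number 2 (log2 change 0.49, SE 0.13, adjusted p = 0.00670). PTTG1 has closely similar copies, PTTG2 and PTTG3P, and its counts are uncertain. CDC20, the APC/C activator that the checkpoint holds back, was at 172 ± 11.8 and 188 ± 11.0 CPM (SD, n = 2; adjusted p = 0.370).

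TOP2A and MKI67 were each higher in number 2 and had the highest levels of the 30 there. TOP2A, the topoisomerase that untangles sister chromatids, was at 380 CPM in control 1, 405 CPM in SIX2-labelled 1, 789 CPM in control 2 and 708 CPM in SIX2-labelled 2 (log2 change 0.93, SE 0.11, adjusted p = 2.02e-05, edgeR). MKI67, the Ki-67 antigen that coats mitotic chromosomes, was at 416, 475, 756 and 568 CPM in the same order (log2 change 0.57, SE 0.14, adjusted p = 0.00427). The 2 libraries numbered 2 differed more from each other for MKI67 than for any other member by ratio. ECT2, the exchange factor that sets the plane of cytokinesis, went from 155 ± 5.08 to 211 ± 5.24 CPM (SD, n = 2; log2 change 0.45, SE 0.10). BIRC5, survivin of the passenger complex, was at 146, 143, 129 and 139 CPM and did not pass (adjusted p = 0.425).

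Per kilobase of exon, the scale on which genes can be compared, the order of the members changed with the number. TPX2 was at 130 CPM per kb in control 1 and 141 in SIX2-labelled 1, and UBE2C at 123 and 122, the highest of the 30 there. In control 2 TOP2A was at 123 and CCNB1 at 107 CPM per kb, above TPX2 at 96.9 and UBE2C at 85.5. In SIX2-labelled 2 CCNB1 was at 116 CPM per kb, above TPX2 at 109 and UBE2C at 103. At the low end, CENPE and NUSAP1 were at 7.69 and 8.06 CPM per kb in control 1, and at 15.5 and 8.78 in control 2.

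Calls between numbers were made again with each library left out, which leaves fewer samples to the test. AURKA, CDK1, CENPE, KIF11, KIF20A, KIF23 and TOP2A, 7 of the 16, passed whichever library was left out. Without control 1 the other 9 did not pass (adjusted p from 0.0611 for CCNB2 to 0.322 for TTK), while their log2 changes kept their sign, with 0.35 for CCNB1, -0.38 for UBE2C and -0.46 for TPX2 against 0.35, -0.38 and -0.40 with all libraries. Without SIX2-labelled 1, 5 did not: CCNB1 (adjusted p = 0.220), TTK (0.0600), TPX2 (0.204), UBE2C (0.121) and ECT2 (0.0627). Without SIX2-labelled 2, TTK did not pass (0.0671). Some members passed only with a library left out. Without control 2 these were CCNA2 (adjusted p = 0.00893), CENPA (0.0322), HMMR (0.00287) and MAD2L1 (0.0172), all higher in number 2. Without SIX2-labelled 2 they were CCNA2 (0.0377) and CENPF (0.000145), higher, and NDC80 (0.0101), lower in number 2. All are edgeR adjusted p-values, and a number left with 1 library is assumed to vary like the other.

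Members also differed by where they lie in the genome. For each member the median log2 change between numbers of the other tested genes within 5 Mb on either side was taken, a description chosen after values were seen. KIF11 had 70 such neighbours with a median of 0.51, of which 36 were higher and 6 lower in number 2. CDK1 and MKI67, also on chromosome 10, had neighbour medians of 0.35 and 0.43, and the whole chromosome, with 639 tested genes, had a median of 0.25, the third highest of 23 chromosomes. KIF23 on chromosome 15 had a neighbour median of 0.62 over 78 genes and TOP2A on chromosome 17 one of 0.29 over 204. At the other end, TPX2 and UBE2C had neighbour medians of -0.52 and -0.53, with 46 of 77 and 51 of 84 neighbours lower in number 2. Chromosome 20, with 438 tested genes, had the lowest median of the 23, at -0.37.

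Some members differed from their neighbours. AURKA lies on chromosome 20 with a neighbour median of -0.38 and was itself higher in number 2 by 0.57. CENPE and KIF20A, higher by 0.78 and 0.72, had neighbour medians of 0.08 and -0.06. AURKB and HMMR had 0.48 and 0.41 and did not pass. Of the 14 members that were higher, 9 had a neighbour median above 0, and both members that were lower had one below 0. Of the 14 that did not pass, 5 had one above 0. Across the 30 members Spearman's rho between a member's change and its neighbour median was 0.59. It is given as a description, since all members share the same 4 libraries and members that lie close together share neighbours. Neither this rho nor the counts above were taken over all tested genes, so they do not show a trait particular to the members. The copy number of these regions was not measured here, and its part in the result was not tested.

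**Figure D3:**
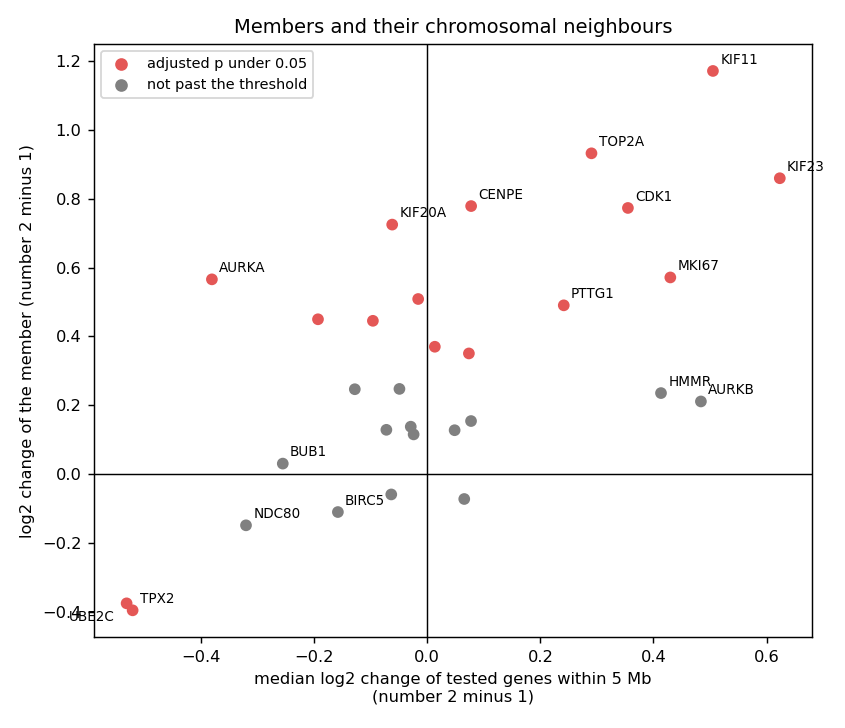
Log2 change of each member between numbers (vertical) against the median log2 change of the other tested genes within 5 Mb (horizontal), red where the member passed the threshold. TPX2 and UBE2C lie at the lower left and KIF11 and KIF23 at the upper right, while AURKA stands apart at the upper left with 0.57 against a neighbour median of -0.38.

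Within each number, 1 SIX2-labelled library can be set against 1 control with no replicate check, and intervals cover counting error only. In number 1 the members' median log2 ratio was 0.09, against 0.00 for all tested genes, and 21 of 30 were higher in the SIX2-labelled library. In number 2 the median was 0.11, against 0.00, and 22 of 30 were higher. A ratio of 1.2 or more was reached by 1 member in number 1, BUB1B, where 12.8% of all genes reached it, and no member was as far below, where 14.0% of genes were. In number 2 it was reached by CENPA, MAD2L1, NDC80, PTTG1 and UBE2C, 5 members against 20.2% of all genes, and MKI67 was as far below, 1 member against 21.4%. The members' ratios thus lay mostly close to 1. Tested genes at large include ones with far fewer counts, whose ratios scatter more, so these shares are not directly comparable.

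Of the 30 members, 13 were higher in the SIX2-labelled library in both numbers, where 22.9% of all genes were, and 0 were lower in both, where 21.7% were. These 13 were AURKA, CCNA2, CCNB2, CENPA, HMMR, KIF20A, KIF23, NDC80, NEK2, NUSAP1, PTTG1, TPX2 and TTK. The ratio of TTK was 1.15 in number 1 (95% interval 1.04 to 1.26) and 1.19 in the other (1.10 to 1.29). For NDC80 it was 1.12 (1.03 to 1.22) and 1.25 (1.15 to 1.36), and for TPX2 1.09 (1.05 to 1.12) and 1.13 (1.09 to 1.17). For KIF23 it was 1.09 (1.02 to 1.17) and 1.11 (1.06 to 1.16). In these 4 genes both intervals, which cover counting error only, lay above 1. The share of all tested genes with both intervals above 1 was not taken, so this count is not a result about the members. None of the 13 passed the label test, in which the difference between numbers counts as spread. CCNB2 had a log2 change of 0.12 (SE 0.30), AURKA 0.11 (SE 0.32), TTK 0.23 (SE 0.25), KIF23 0.14 (SE 0.44), HMMR 0.16 (SE 0.22) and PTTG1 0.25 (SE 0.30) between labels, each with an adjusted p of 1.00 by edgeR.

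**Figure D4:**
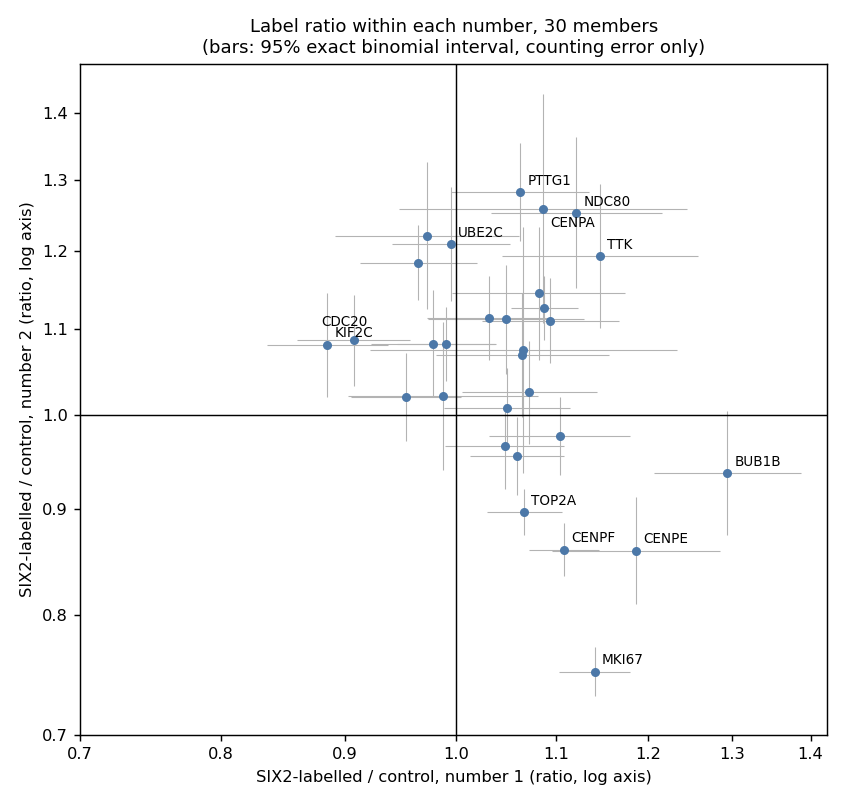
Ratio of the SIX2-labelled library to the control in number 1 (horizontal) and in number 2 (vertical), log axes, 1 point per member with 95% exact binomial intervals that cover counting error only. No member lies at the lower left, BUB1B is farthest right at 1.29 and MKI67 lowest at 0.751.

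In 7 members the ratio went opposite ways in the 2 numbers with both intervals clear of 1, as in 8.45% of all tested genes. Such intervals narrow as counts rise. Each member had at least 347 counts in every library, while tested genes at large include ones with far fewer. The member count and that share are therefore not directly comparable. BUB1, CENPE, CENPF, MKI67 and TOP2A were higher in the SIX2-labelled library of number 1 and lower in that of number 2, and CDC20 and KIF2C the reverse. The members' ratios went with gene length, taken as the union of exons, and in number 2 also with level. The 6 members over 6000 bases, BUB1, CENPE, CENPF, KIF23, TOP2A and MKI67, were all higher in SIX2-labelled 1 than in control 1, with a median log2 ratio of 0.14, and 1 of them was higher in SIX2-labelled 2, with a median of -0.19. The other 24 had medians of 0.07 and 0.12. Spearman's rho between ratio and length across the 30 members was 0.38 in number 1 and -0.59 in number 2. Over 16009 genes with finite ratios it was 0.15 and -0.24, so the sign of the relation was the same as for genes at large. With mean CPM in place of length, rho was -0.11 and -0.44 across the members and 0.03 and 0.04 over those genes. Length and level were not separated among the members. These are descriptions over genes of the same 4 libraries, and the part of RNA quality or library preparation was not tested. The length cutoff was chosen after values were seen.

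**Figure D5:**
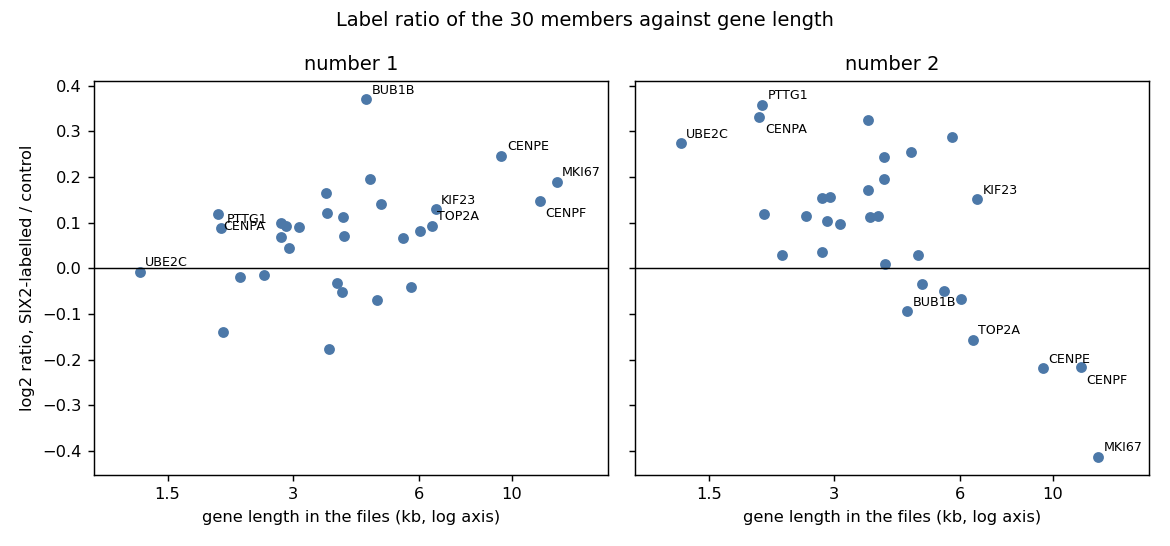
Log2 ratio of the SIX2-labelled library to the control for the 30 members against gene length (kb of exon, log axis), in number 1 (left) and number 2 (right). The longest members, MKI67, CENPF and CENPE, lie above 0 in number 1 and below 0 in number 2, where MKI67 is at -0.41.

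Other genes of the same processes were also more often higher than lower in number 2. Of 111 further G2/M and mitosis genes in 7 lists, all tested, 43 were higher and 15 lower in number 2, with a median log2 change of 0.24, where 22.2% of all tested genes were higher and 21.6% lower. None of the 111 (0) passed between labels. Other spindle and cytokinesis genes had 12 of 24 higher and 1 lower, with PBK, a mitotic kinase, at 1.42 (SE 0.12), the kinesin KIF20B at 1.14 (SE 0.11) and the chromokinesin KIF4A at 0.99 (SE 0.11) on the log2 scale. Kinetochore and CENP-A loading genes had 11 of 26 higher and 2 lower, with MIS12 and CENPM at 0.69 and 0.77 among the former. Condensin and cohesin control genes had 7 of 14 higher and 1 lower. The condensin subunits NCAPD2 and SMC2 changed by 0.78 and 0.59, and CDCA5, the cohesin protector sororin, by -0.56. Of 7 other checkpoint genes 2 were higher, ZWILCH by 0.66 and BUB3 by 0.58, and ZW10 did not pass (0.27, adjusted p = 0.0695, edgeR).

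Upstream control genes were mixed. FOXM1, the forkhead factor of G2/M transcription, had 108 CPM in control 1 and in SIX2-labelled 1, 232 CPM in control 2 and 219 CPM in SIX2-labelled 2 (log2 change 1.06, SE 0.10, adjusted p = 4.29e-06, edgeR). MYBL2, which encodes B-MYB and lies on chromosome 20, was at 344, 336, 194 and 212 CPM in control 1, SIX2-labelled 1, control 2 and SIX2-labelled 2 (log2 change -0.74, SE 0.11, adjusted p = 0.000102). Of the 12 genes in that list 2 were higher and 6 lower in number 2, TFDP1, the partner of E2F factors, among the latter at -0.66. Genes of mitotic entry had 5 of 13 higher and 3 lower. CDC25B, a phosphatase that activates CDK1, was higher by 1.06 (SE 0.11) and lies on chromosome 20. BORA, which helps AURKA activate PLK1, was at 42.5 CPM in control 1, 39.1 CPM in SIX2-labelled 1, 15.3 CPM in control 2 and 17.2 CPM in SIX2-labelled 2, a log2 change of -1.33 (SE 0.13). GTSE1, a G2 and spindle protein, was higher by 0.52 and did not pass without SIX2-labelled 1 (adjusted p = 0.0555, edgeR). APC/C subunits and regulators had 4 of 15 higher, UBE2S at 0.69 and ANAPC11 at 0.68 among them, and 2 lower, CDC16 at -0.65 among them.

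Genes of DNA replication, which act before these in the cell cycle, were counted in the same way. Of 34 such genes 17 were higher and 0 lower in number 2, with a median log2 change of 0.26, against 0.25 for the 30 members. POLA1, MCM6 and CDC6 were higher by 1.01, 0.88 and 0.89. Among CDK inhibitors, D cyclins and their partners 5 of 12 were higher and 3 lower in number 2. CDKN1A, which encodes the p53 target p21, was at 78.3, 73.0, 44.3 and 57.8 CPM in control 1, SIX2-labelled 1, control 2 and SIX2-labelled 2 (log2 change -0.57, SE 0.13, adjusted p = 0.00360), a gene named after its values were seen. CDKN1C, an inhibitor of CDKs, was higher by 0.77, and MYC lower with a log2 change of -0.70. CCND2, a D-type cyclin, had 0 counts in number 1, 8.79 CPM in control 2 and 10.6 CPM in SIX2-labelled 2.

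Markers of cell type also differed between numbers. Of 17 epithelial and gastric cancer line markers 12 were tested, 2 higher and 6 lower in number 2, and their summed level was 3417 to 3456 CPM in number 1 and 4721 to 6094 CPM in number 2. The 2 higher were the keratin genes KRT8 (log2 change 0.87) and KRT18 (0.79). KRT8 alone was at 1735 CPM in control 1, 1707 CPM in SIX2-labelled 1, 2719 CPM in control 2 and 3549 CPM in SIX2-labelled 2. CDH1, the epithelial cadherin, was at 22.0, 20.4, 5.32 and 8.05 CPM in control 1, SIX2-labelled 1, control 2 and SIX2-labelled 2. CLDN7 was also lower in number 2 (log2 change -1.39), as was CDH17, with 70 and 81 counts in control 1 and SIX2-labelled 1 and 0 and 1 in control 2 and SIX2-labelled 2. Of 7 fibroblast markers 6 were tested, 2 higher and 3 lower, with summed levels of 124 CPM in control 1, 139 CPM in SIX2-labelled 1, 290 CPM in control 2 and 280 CPM in SIX2-labelled 2. In that library order LUM was at 42.3, 49.0, 0 and 0.127 CPM, COL1A1 at 54.1, 56.9, 280 and 274 CPM, and DCN at 23.5, 28.4, 0.658 and 1.01 CPM. The single tested endothelial marker, CDH5, did not pass (adjusted p = 0.259, edgeR), but did without control 2 (adjusted p = 0.0178). The part of these differences in the levels of the mitotic genes was not tested.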

How the data were processed

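Total RNA of 4 libraries was extracted with Trizol, prepared with a TruSeq RNA kit and run on an Illumina NovaSeq 6000, per the labels' protocols. The authors deposited 1 file per library holding unnormalized whole counts for each Ensembl gene, as headers and values show. Not given in the sources used here: aligner, counting program and strand setting. A mouse build, mm9, is named in the submitters' processing notes, yet all 58735 genes matched human GENCODE 29 (GRCh38) in ID, start, end and exon length. The labels differ on whether there were 2 repeats or triplicates.

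The count test was edgeR 4.0.16 in R 4.3.3 (filterByExpr, TMM, quasi-likelihood test with 1 term, label or number; threshold 0.05). SEs were taken from the F statistic. DESeq2 1.42.0, limma 3.58.1 (voom), other scalings, no filter, a replicate block and leaving out each library were alternatives. Within-number ratios have exact binomial (Clopper-Pearson) intervals at 95%, for counting error only. Methods were checked on simulated counts with planted changes of 1.5-, 2- and 4-fold. The label test found 0% at each size, and 42.4%, 75.4% and 100% with number as a second term. The number test found 42.4%, 76.9% and 98.4%. The 30 genes and all lists were chosen with earlier results of these data known. Genes were named by role: the smallest p and largest change between numbers, the smallest p between labels, opposite changes of 1.2-fold in the 2 numbers (0 genes), and up to 3 per other list, some of which are not reported here. Other members are given by values or counts.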

Additional observations from a re-analysis of the deposited data

Results flagged for a closer look

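In 7 of the 30 genes the ratio of the SIX2-labelled library to the control went opposite ways in the 2 numbers, with both 95% binomial intervals clear of 1. Of all tested genes 8.45% did so, a share not directly comparable, since many of them have fewer counts and so wider intervals. Each ratio rests on 1 library a side, the intervals cover counting error only, and no test was made of how the numbers differ. For the proliferation antigen MKI67 the ratio was 1.14 in number 1 (1.10 to 1.18) and 0.751 in number 2 (0.731 to 0.772). For the kinetochore genes CENPE and CENPF it was 1.19 (1.10 to 1.29) and 1.11 (1.07 to 1.15) in number 1, against 0.860 (0.810 to 0.912) and 0.861 (0.835 to 0.886) in the libraries numbered 2. TOP2A had 1.07 (1.03 to 1.11) and 0.897 (0.875 to 0.920), and BUB1 1.06 (1.01 to 1.11) and 0.955 (0.914 to 0.997). In the other direction CDC20 had 0.907 in number 1 (0.860 to 0.958) and 1.09 in number 2 (1.03 to 1.14), and KIF2C 0.885 (0.835 to 0.937) and 1.08 (1.02 to 1.15).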

How the results depend on the processing

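Depth limits single genes little, since each member had at least 347 counts in every library, and the 2 libraries a side limit the tests. Between labels 0 members passed under each of the 6 other settings and whichever library was left out. With a replicate block, that is with number as a second term, 8 genes in all passed between labels in place of 0, none of them a member. By unadjusted p there were 501 genes against 12. Between numbers 16 members passed with the block, as before. Without the second term the difference between numbers counts as spread, and on simulated counts the edgeR label test then found 0% of 4-fold changes. Control 2 minus 1 and SIX2-labelled 2 minus 1 correlated at 0.88 across genes (log2(CPM + 1)), but there are only 2 pairs and the labels give the number no meaning. Between numbers 15 of the 16 members passed under all 6 other settings, TTK being the exception. The members' median log2 change between numbers was 0.27 with upper-quartile factors. Leaving out 1 library gave 7 to 20 members and 30 to 71 of the 111 further genes past the threshold between numbers, and median changes of 0.20 to 0.34 between numbers and -0.10 to 0.25 between labels. Such fits unbalance the numbers. Log2 changes between labels then ran from -0.23 to 0.40 for AURKA, -0.044 to 0.14 for BIRC5, -0.18 to 0.38 for CCNB2, -0.36 to 0.64 for KIF23, -0.53 to 0.33 for MKI67, -0.097 to 0.52 for PTTG1 and -0.39 to 0.34 for SIX2, which was at -0.0060 with limma-voom. Between numbers they ran from -0.016 to 0.065 for BUB1, -0.24 to 0.13 for BUB1B, -0.020 to 0.33 for CENPA, -0.17 to 0.012 for KIF2C, -0.012 to 0.29 for MAD2L1 and -0.32 to 0.020 for NDC80. The cause was not tested.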
